A study of Mus musculus with 6 samples.

Results

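The miR-378 family was followed in small RNA libraries of mouse intestine, 3 from pups with experimental necrotizing enterocolitis (NEC) and 3 from Control pups. Its members were chosen by name, as the rows of the authors' table called mmu-miR-378a-3p, mmu-miR-378a-5p, mmu-miR-378b, mmu-miR-378c and mmu-miR-378d, where mmu stands for mouse. All 5 names were present among the 604 miRNAs of the table, and all 5 passed the minimum for testing, which left 386 miRNAs. The rule uses no measured value, but the family was proposed with earlier results of these libraries known, so its values are given as a description.

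The pups were wild-type C57BL/6J mice, put into groups at day 5. NEC pups received 40 μl of 33% Esbilac formula by gavage every 4 h for 96 h, and every 12 h they were exposed to 99.9% N2 for 100 s and then to 4 °C for 10 min. The treatment label of these libraries also names PBS in the gavage, and that of the Control libraries reads PBS. Control pups were fed by the dam without hypoxia or cold. Feeding, gavage, hypoxia and cold differ together between the groups and cannot be told apart. The labelled tissue is the intestine, and the study's methods name the ileum for RNA sequencing. No source used here tells if libraries are from separate pups, and p-values therefore measure only how far these 6 libraries spread, and this spread may be technical.

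MiR-378a is best known as a miRNA of energy metabolism. Its hairpin lies inside Ppargc1b, the gene of PGC-1β, a coactivator that drives mitochondrial and fatty acid oxidation genes, and the 2 arms of the hairpin give miR-378a-3p and miR-378a-5p. Mice that lack both arms are known to resist obesity on a high-fat diet, and targets described in the mouse are Crat, a mitochondrial carnitine acetyltransferase, and Med13, a subunit of the Mediator complex. The 5p arm has been described in human breast cancer cells as a repressor of the estrogen-related receptor ERRγ. The family is abundant in striated muscle and brown fat, and miR-378b, miR-378c and miR-378d come from other hairpins with a closely related mature sequence.

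The mature sequences are shown because miR-378b, miR-378c and miR-378d differ by so few bases that reads could be assigned to more than 1 of them. They were taken from RefSeq (GRCm38.p6), which matched 3 of the 5 members, and bases 2 to 8, the seed that pairs with targets, are in capitals:
miR-378b: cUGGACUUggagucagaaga
miR-378c: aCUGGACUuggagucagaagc
miR-378d: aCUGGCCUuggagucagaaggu
They are 20, 21 and 22 bases long. Counted from the 5′ end of miR-378c, miR-378d carries A6C, which is inside the seed, and C21G at the 3′ end. The sequence of miR-378b begins 1 base later, at the second base of miR-378c, shares a run of 19 bases with it, and counted from its own 5′ end differs by A20C. All 3 hold the run cuuggagucagaag of 14 bases, and because of the shifted start and the base in the seed, their 3 seeds differ from each other. MiR-378a-3p and miR-378a-5p were not compared by sequence here. No source used here says how reads that match several members were assigned, so the values of miR-378b, miR-378c and miR-378d are uncertain as measurements separate from each other and from the far more abundant miR-378a-3p.

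On GRCm38, the assembly also called mm10, which the submitters' processing notes name, the hairpin of miR-378a lies on the minus strand of chromosome 18 from 61397835 to 61397900, in an intron of Ppargc1b and on the same strand as that gene. A miRNA gene named Gm25301 is annotated on the opposite strand of this locus. The hairpin of miR-378b lies on the plus strand of chromosome 11 from 88352773 to 88352864, within Msi2, the gene of an RNA-binding protein, in an intron and on the opposite strand. That of miR-378c lies on the minus strand of chromosome 14 from 46954830 to 46954928, in an intron of Samd4 and on the strand opposite to it. The hairpin of miR-378d, on the minus strand of chromosome 10 from 126710282 to 126710391, overlaps no other annotated gene. Of the 4 hairpins, only that of miR-378a therefore lies in the sense strand of a protein-coding gene.

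In these libraries the family was almost entirely miR-378a-3p. This miRNA ranked between 12 and 19 among the 604 miRNAs in every library. Its normalized log2 value was 14.11 ± 0.31 (SD, n = 3) in NEC and 14.63 ± 0.45 (SD, n = 3) in Control. After back-transformation of the log2 values, it made up between 96.5% and 97.7% of the summed family values in each library. The table holds normalized log2 values without counts, so the depth of the libraries is unknown. The transformation to log2 values is unnamed, and a difference between them need not equal a fold change in reads.

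**Figure D1:**
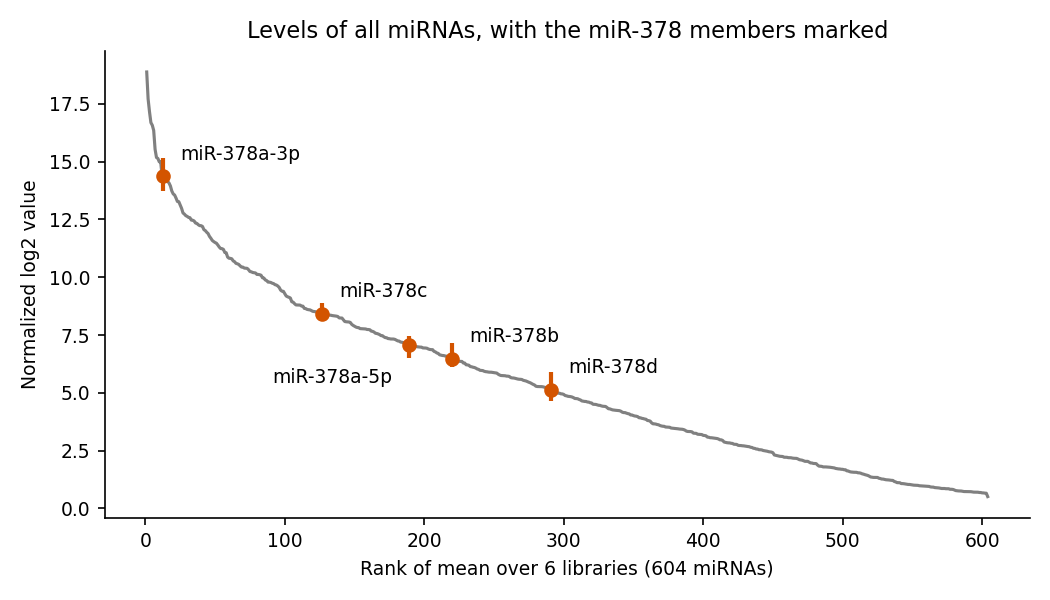
Normalized log2 value (vertical axis) of the 604 miRNAs ordered by their mean over the 6 libraries (horizontal axis, rank), with the mean of each miR-378 member as a point and its lowest to highest library as a bar. MiR-378a-3p lies at the top of the curve, at a mean of 14.37, and the other members lie between 5.12 and 8.41.

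The other members followed in the order miR-378c, miR-378a-5p, miR-378b and miR-378d, and this order was the same in all 6 libraries. The mean over the 6 libraries was 8.41 ± 0.30 (SD) for miR-378c, 7.07 ± 0.33 for miR-378a-5p, 6.47 ± 0.37 for miR-378b and 5.12 ± 0.41 for miR-378d. MiR-378a-3p lay above miR-378c by 5.97 ± 0.32 within a library (SD, n = 6). The ranges of neighbours in the order did not overlap, except for miR-378a-5p and miR-378b. Those 2 were 0.28 to 0.92 apart within a library, while the lowest library of miR-378a-5p, at 6.51, was below the highest of miR-378b, at 7.14.

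The libraries carry codes of 2 series. NEC replicates 2 and 3 and Control replicates 1 and 2 belong to code series 1, and NEC replicate 1 and Control replicate 3 to code series 2. The codes do not say what sets the series apart. In a limma fit with terms for condition and series, 57.5% of the 386 miRNAs had an adjusted p under 0.05 for the series, so values within each series are given beside the pooled ones. The 10 most abundant miRNAs held 79.0% and 78.9% of the back-transformed values in the libraries of series 2, and 68.5% to 71.2% in those of series 1.

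All 5 members were lower on average in the NEC libraries than in the Control libraries, but none passed an adjusted p under 0.05. The log2 differences lay between -0.52 and -0.27. In limma over the 386 miRNAs the adjusted p was 0.998 for each of them, and 0% of all miRNAs tested passed this threshold. No member had an unadjusted p under 0.05 either, a level that 11 miRNAs reached, which is 2.85%. For comparison, 48.2% of the 386 miRNAs had a log2 difference below 0. In bulk tissue, fewer cells of a type and less RNA per cell cannot be told apart.

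**Figure D2:**
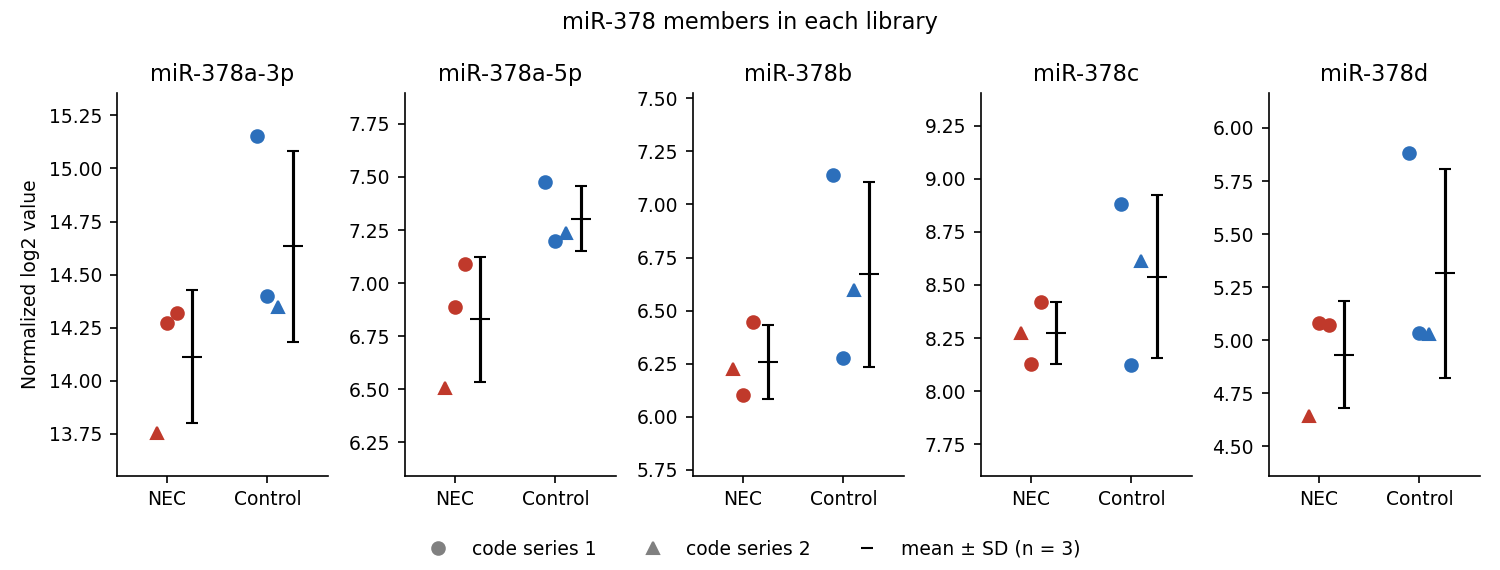
Normalized log2 value (vertical axis, the same span in each panel but another start) of each miR-378 member in the 3 NEC and 3 Control libraries. Circles are libraries of code series 1, triangles those of code series 2, and the bars give the mean ± SD. The highest Control point in each panel is Control replicate 1.

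MiR-378a-3p, the main product of the Ppargc1b hairpin, had log2 values of 13.75, 14.27 and 14.32 in NEC replicates 1, 2 and 3, against 15.15, 14.40 and 14.35 in Control replicates 1, 2 and 3. Every NEC value lay below every Control value, but the gap between the groups was only 0.030. Control replicate 1 stood above the next library by 0.75, and NEC replicate 1 was the lowest. NEC minus Control was -0.52 with a standard error (SE) of 0.32 (limma, unadjusted p = 0.142 and adjusted p = 0.998). Leaving out Control replicate 1 gave -0.26, leaving out NEC replicate 1 gave -0.34, and -0.08 remained when both were left out.

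The passenger arm miR-378a-5p had log2 values of 6.51, 6.89 and 7.09 in NEC replicates 1, 2 and 3 and of 7.48, 7.20 and 7.23 in Control replicates 1, 2 and 3. These groups did not overlap either, and were 0.11 apart. The mean was 6.83 ± 0.30 (SD, n = 3) in NEC and 7.30 ± 0.15 (SD, n = 3) in Control, so that NEC minus Control was -0.47 with a standard error of 0.26 (limma, adjusted p = 0.998). It was -0.39 when Control replicate 1 was left out, -0.31 when NEC replicate 1 was, and -0.23 when both were, farther from 0 than for miR-378a-3p in the first and last case.

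Of the 5 members, miR-378a-3p and miR-378a-5p were the 2 without overlap between NEC and Control. Among all miRNAs tested, 4.92% were lower in NEC with no overlap. Since both arms are cut from 1 hairpin and their values are not separate observations, the 2 count as 1 locus. When 1 library was left out, 2 to 4 members were lower without overlap, against 4.92% to 17.6% of all miRNAs tested. The 4 came without Control replicate 2, the library by which miR-378b and miR-378c otherwise overlap, against 7.51% of all miRNAs tested.

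MiR-378b, from the Msi2 locus, was at 6.23, 6.10 and 6.45 in NEC replicates 1, 2 and 3, against 7.14, 6.28 and 6.59 in Control. Control replicate 2 lay inside the range of the NEC libraries. The log2 difference was -0.41 (SE 0.29, with an adjusted p of 0.998 in limma), and -0.18 without Control replicate 1.

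For miR-378c, from the Samd4 locus, the values were 8.28, 8.13 and 8.42 in NEC and 8.88, 8.12 and 8.61 in Control. Control replicate 2 was the lowest of all 6 libraries, so the groups overlapped. This member had the smallest difference of the 5, at -0.27 (SE 0.27, with an adjusted p of 0.998 in limma), and -0.09 without Control replicate 1.

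MiR-378d had the lowest values of the family, with 4.64, 5.08 and 5.07 in NEC and 5.88, 5.04 and 5.03 in Control. Control replicates 2 and 3 lay between the NEC libraries, so that only Control replicate 1 was above all of them, by 0.80. The log2 difference was -0.38 (SE 0.32, with an adjusted p of 0.998 in limma). It was -0.10 without Control replicate 1, and without Control replicate 1 and NEC replicate 1 its sign turned, at 0.05.

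**Figure D3:**
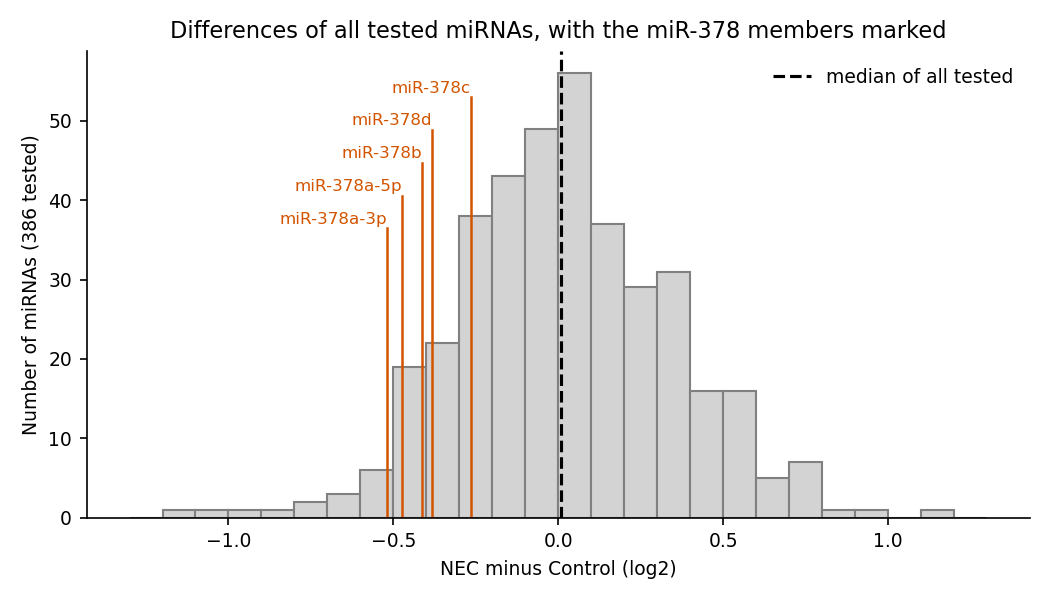
Number of miRNAs (vertical axis) by log2 difference, NEC minus Control (horizontal axis), for the 386 miRNAs tested. The miR-378 members, marked by lines, lie between -0.52 and -0.27, left of the median of all miRNAs tested, which is 0.01.

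The median difference of the 5 members was -0.41, against 0.01 for all 386 miRNAs. MiR-378b, miR-378c and miR-378d share sequence, both miR-378a arms share a hairpin, and all members share the same 6 libraries. The median therefore describes a set of related values. Ordered from the lowest difference upward, miR-378a-3p stood at place 15 of the 386.

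Within each code series all 5 members were lower in NEC as well. In code series 1, with 2 NEC and 2 Control libraries, the log2 differences were -0.48 for miR-378a-3p, -0.35 for miR-378a-5p, -0.43 for miR-378b, -0.23 for miR-378c and -0.38 for miR-378d. In code series 2, with 1 library of each group, they were -0.59, -0.73, -0.37, -0.34 and -0.39 in the same order of members. Control replicate 1 belongs to series 1, and the only NEC library of series 2 is NEC replicate 1, the lowest library for 3 of the 5 members, so each series holds 1 of the 2 libraries that stood apart. Of all 386 miRNAs, 33.4% were lower in NEC within both series. The difference between the 2 within-series values was tested as an interaction in limma, and no member passed (adjusted p from 0.953 to 0.996), with 0% of all miRNAs passing.

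When the series was a term of the limma fit, the SE of miR-378a-3p was 0.20, against 0.32 without it, and 2 of the 5 members had an unadjusted p under 0.05, against 8.55% of the 386 miRNAs in the lower direction. They were miR-378a-3p, with an unadjusted p of 0.037 and an adjusted p of 0.255, and miR-378a-5p, with 0.0202 and 0.251. In this fit 0 of the 386 had an adjusted p under 0.05. When Control replicate 1 was left out as well, the log2 differences were -0.32 for miR-378a-3p (adjusted p = 0.475 from limma) and -0.43 for miR-378a-5p (adjusted p = 0.390 from limma).

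**Figure D4:**
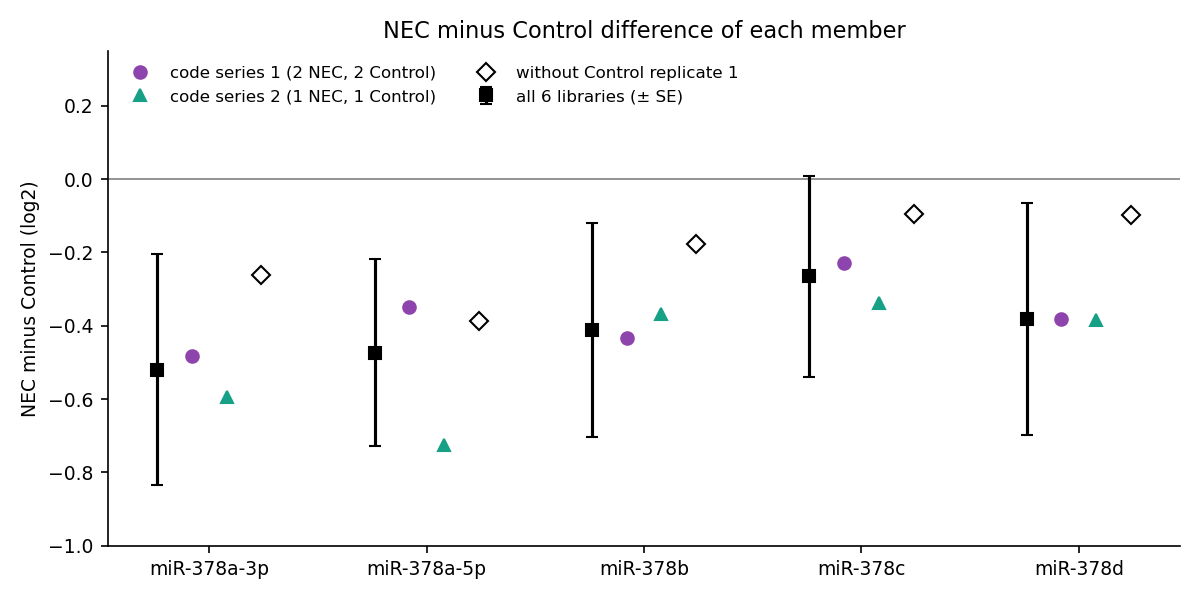
NEC minus Control difference on the log2 scale (vertical axis) of each miR-378 member, over all 6 libraries with its standard error (squares), within code series 1 (circles), within code series 2 (triangles) and without Control replicate 1 (open diamonds). All points lie below 0, and those without Control replicate 1 lie between -0.39 and -0.09.

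The members were also compared between the code series, series 2 against series 1, with condition as a covariate. By limma 0 of the 5 had an adjusted p under 0.05, while 32.1% of the 386 miRNAs were lower in series 2 at that threshold. MiR-378a-3p averaged 14.05 in series 2 and 14.54 in series 1, so that series 2 minus series 1 was -0.48 with a standard error of 0.22 (limma, adjusted p = 0.0889). That of miR-378d was -0.43 (SE 0.23, adjusted p = 0.142) and that of miR-378a-5p -0.29 (SE 0.17, adjusted p = 0.173). For miR-378b and miR-378c the differences were -0.08 and 0.06, within their standard errors of 0.25 and 0.23. This result depended on scaling. When libraries were set to an equal back-transformed total, miR-378a-3p (-0.83, adjusted p = 0.00355 from limma), miR-378a-5p and miR-378d passed.

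The members shared their highest library, and without it they moved together less. Control replicate 1 was the highest library for all 5, by 0.41 to 0.78 above each member's mean, and 28.8% of the 386 miRNAs had their highest value there. NEC replicate 1 was the lowest for 3 of the 5, miR-378a-3p, miR-378a-5p and miR-378d, against 28.2% of all miRNAs. The remaining 4 libraries stayed within 0.36 of each member's mean. Over the 10 pairs of members, Pearson's r between log2 values was 0.63 to 0.98, with a median of 0.83. Without Control replicate 1 it was 0.04 to 0.96, with a median of 0.48.

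**Figure D5:**
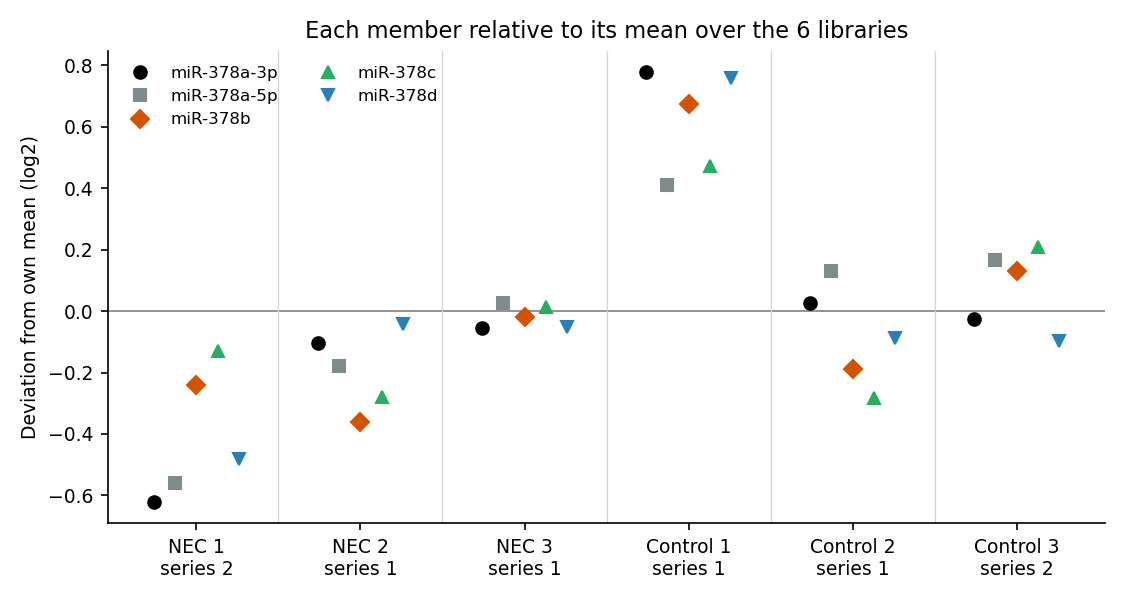
Deviation of each miR-378 member from its own mean over the 6 libraries (vertical axis, log2) in each library (horizontal axis, with its code series). In Control replicate 1 all members lie 0.41 to 0.78 above their mean, and in NEC replicate 1 they lie 0.13 to 0.62 below it.

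MiR-378d stayed at an almost fixed distance from miR-378a-3p. Within a library its log2 value minus that of miR-378a-3p was -9.11, -9.19 and -9.25 in NEC replicates 1, 2 and 3 and -9.27, -9.37 and -9.32 in Control replicates 1, 2 and 3. The SD of this distance over the 6 libraries was 0.091, the smallest of the 385 other miRNAs tested, whose median was 0.54. The next smallest was nearly the same, at 0.104 for miR-31-5p, which is outside the family. Pearson's r between the log2 values of miR-378d and miR-378a-3p over the 6 libraries was 0.98, and it was 0.96 without Control replicate 1. By ranks (Spearman) their correlation over the 6 libraries was only 0.49. No source used here says how reads were assigned between miR-378d and miR-378a-3p, so the value of miR-378d may not be a measurement of its own, and the part of read assignment in this distance was not tested. The distance was smaller in every NEC library than in every Control library, by 0.14 on average (p = 0.1 by exact permutation, two-sided, the lowest value possible for 3 libraries in each group). The groups lay close, with -9.25 in NEC replicate 3 and -9.27 in Control replicate 1. By the same test p was 0.2 when NEC replicate 1, Control replicate 2 or Control replicate 3 was left out alone. How many other miRNAs separate in this way was not counted.

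MiR-378b and miR-378c, which share the run of 19 bases, moved as another pair. MiR-378c lay above miR-378b by 1.94 ± 0.12 within a library (SD, n = 6), and r between their log2 values was 0.96, and 0.92 without Control replicate 1. Their distance from miR-378a-3p was less fixed, with an SD of 0.24 for miR-378b and 0.32 for miR-378c. Compared with miR-378a-3p, miR-378c was higher in code series 2, where its value minus that of miR-378a-3p was -5.48 and -5.74, than in code series 1, where it was -6.28 to -5.90. MiR-378b was likewise nearer to miR-378a-3p in series 2, at -7.53 and -7.75, than in series 1, at -8.17 to -7.87. Without Control replicate 1, r between miR-378c and miR-378a-3p was 0.10, against 0.70 with it. These correlations have 6 points that share libraries and scaling, and are descriptions.

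The 2 arms of the miR-378a hairpin kept their ratio between the groups within the spread of the libraries. The log2 value of miR-378a-3p minus that of miR-378a-5p was 7.29 ± 0.09 (SD, n = 3) in NEC and 7.33 ± 0.30 (SD, n = 3) in Control, a difference of -0.05 (exact two-sided permutation test, p = 1, where the smallest possible p is 0.1). Its highest value was 7.67, in Control replicate 1, and the other 5 libraries lay between 7.11 and 7.38. Without Control replicate 1 the difference was 0.13. The distance of miR-378c from miR-378a-3p was -5.84 ± 0.34 (SD, n = 3) in NEC and -6.10 ± 0.31 (SD, n = 3) in Control, a difference of 0.25 (exact two-sided permutation test, p = 0.5).

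The miRNAs outside the family with the pattern most like that of miR-378a-3p were miR-31-5p, let-7e-3p, miR-103-3p, miR-490-5p and miR-652-3p. Pearson's r over the 6 libraries was 0.98, 0.97, 0.96, 0.94 and 0.94, out of 381 miRNAs compared. All 5 had their highest value in Control replicate 1 and their lowest in NEC replicate 1. Without Control replicate 1, r was 0.95 for miR-31-5p and 0.78 for miR-490-5p, and lay between them for the others. After each code series was centred on its own mean, the 5 most alike were miR-31-5p, let-7e-3p, miR-744-3p, let-7d-5p and miR-150-5p, with r from 0.95 to 0.98. MiR-31-5p, which is best known from inflamed and regenerating epithelium, had log2 values of 10.67, 11.07 and 10.99 in NEC replicates 1, 2 and 3 and of 12.12, 11.25 and 11.14 in Control replicates 1, 2 and 3. Its log2 difference was -0.59 (SE 0.33, with an adjusted p of 0.998 in limma).

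Other miRNAs of metabolism did not share a direction. The list holds 18 miRNAs known from lipid, glucose or mitochondrial metabolism or from introns of metabolic and contractile genes, all 18 were in the table, and 15 were tested. Of these, 7 were higher and 8 lower in NEC, none passed an adjusted p under 0.05, and the median log2 difference was -0.02, against 0.01 for all miRNAs tested. The 4 with the largest mean were miR-143-3p (log2 difference -0.25, SE 0.27), miR-26a-5p (-0.49, SE 0.36), miR-27b-3p (-0.07, SE 0.24) and miR-107-3p (0.00, SE 0.25). MiR-26a-5p, which lies in introns of phosphatase genes and is known to affect insulin signalling, was at 15.23 in Control replicate 1 and between 13.90 and 14.41 in the other 5 libraries. Like miR-378a, miR-103-3p and miR-107-3p come from introns of metabolic genes, in their case those of pantothenate kinases. The log2 difference was -0.18 (SE 0.22) for miR-103-3p and 0.00 (SE 0.25) for miR-107-3p.

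Markers of cell types that the gut wall can hold were compared beside the family. The level of a list is the log2 of its summed back-transformed values, so its most abundant miRNAs weigh most. For striated muscle, where miR-378 is abundant, the list was at 10.56 to 12.05 in NEC and 10.68 to 11.68 in Control. Of its 4 tested members, 2 were higher and 2 lower in NEC. Of the 7 listed, all 7 were in the table. The defining miR-1a-3p, which weighs most in the sum, was at 11.89, 10.22 and 10.59 in NEC and 10.81, 10.32 and 11.42 in Control. MiR-133a-3p had another pattern, at 7.42, 7.57 and 7.89 in NEC and 8.33, 7.97 and 7.38 in Control. Its highest value was in Control replicate 1, as for the miR-378 members. Series 2 minus series 1 was 1.17 for miR-1a-3p and -0.54 for miR-133a-3p. The brown and beige fat list, with 3 of 3 in the table, was at 6.06 to 6.90 in NEC and 6.09 to 7.02 in Control. The smooth muscle list, with 4 of 4, was at 18.64 to 18.92 in NEC and 18.75 to 19.42 in Control, and the epithelial list, with 8 of 8, at 18.27 to 19.01 and 18.35 to 19.18. The summed levels of the groups overlapped in each of these 4 lists. Of the 8 epithelial miRNAs, 3 were higher and 5 lower in NEC, and 1 was lower with no overlap. This was miR-429-3p, at 12.15, 11.96 and 12.06 in NEC and 12.50, 12.56 and 12.40 in Control (log2 difference -0.43, SE 0.22). Of all miRNAs tested, 4.92% were lower in NEC with no overlap.

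The summed leukocyte list, in which miR-150-5p weighs most, was lower in every NEC library than in every Control library. It was at 6.62 to 7.21 in NEC and 7.41 to 8.35 in Control, and its highest library was Control replicate 1. Of its 4 miRNAs, 2 were in the table. MiR-150-5p of lymphocytes, the more abundant of them, was at 6.31, 6.40 and 6.92 in NEC and 8.22, 7.20 and 7.21 in Control, with no overlap and its highest value in Control replicate 1. MiR-223-3p of myeloid cells overlapped between the groups, at 4.24, 4.51 and 4.72 in NEC and 4.72, 4.54 and 4.62 in Control, with a log2 difference of -0.14 (SE 0.24). The red blood cell list, with 4 of 4 in the table, went the other way, at 9.86 to 10.51 in NEC and 9.42 to 10.10 in Control, and was lowest in Control replicate 1. No marker in the table was at 0, and limma called none of the tested markers at an adjusted p under 0.05. The part of these cells in the values of the miR-378 members was not tested.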

How the data were processed

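Per the labels, each column of the authors' table belongs to 1 library through its library code, and no column was left unmatched. The deposited values are normalized log2 values of 604 miRNAs. The authors made the libraries with a NEBNext small RNA kit, read them from 1 end and used DESeq2, and the submitters' processing notes name the build mm10. Aligner, counting, miRNA annotation and log2 transformation: not given in the sources used here. Depth per library and its precision are therefore unknown. Library medians were 4.78 to 5.01.

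A minimum of 3.32 (a back-transformed 10) in 3 or more libraries left 386 miRNAs for testing. The main test was limma (3.58.1, under R 4.3.3), two-sided, without covariates and adjusted by Benjamini-Hochberg over all miRNAs tested. A check on simulated data planted only changes larger than any member's difference. It cannot tell if differences of the members' size would be found. Further limma fits took in the code series, or its interaction with condition. Within-library differences were tested by exact permutation. Alternatives covered 3 scalings, 2 other filters, robust limma, constants of 0.1, 1 and 5 added to back-transformed values, left-out libraries, a replicate block and the code series. Members and lists were chosen with earlier results of these data known. Besides the members, the text names the 5 miRNAs most correlated with miR-378a-3p, as deposited and after centring each series, and up to 4 tested members of the metabolic list by mean. Single cell type markers, and miR-103-3p within that list, were picked after their values were seen. Coordinates come from GENCODE M21 and sequences from RefSeq. The mRNA, PCR, human and cell experiments were not analysed here.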

Additional observations from a re-analysis of the deposited data

How the results depend on the processing

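Over 20 alternatives, none of the 5 members passed an adjusted p under 0.05 between NEC and Control. The other filters, the robust fit, the replicate block and the code series added to the main fit cannot move a member's difference. Their values repeat the main ones and add no support for the direction. With these repeats counted, 98 of the 99 member values stayed below 0. The exception was miR-378d, at 0.046 without Control replicate 1 and NEC replicate 1 together, an alternative chosen after seeing the data, like the fit of the code series without Control replicate 1. Leaving out 1 library gave -0.66 to -0.26 for miR-378a-3p, -0.61 to -0.31 for miR-378a-5p, -0.61 to -0.18 for miR-378b, -0.47 to -0.09 for miR-378c and -0.53 to -0.10 for miR-378d. Over all miRNAs, 2 passed in code series 1 alone and 0 in every other alternative. The number with an unadjusted p under 0.05 was 11, and became 3 to 33 when 1 library was left out, 21 with no filter, 70 when the fit had the code series, 68 in code series 1 alone and 3 with the replicate number as a block. The block changed no call of a member. Same-numbered libraries had correlations of deviations of -0.69, 0.73 and -0.78. The sign followed the code series, positive for every NEC and Control library of the same series and negative for every other pair. These correlations therefore cannot tell if the numbers pair the samples. NEC replicates 1 and 3 correlated best with a Control library of another number, and NEC replicate 2 with that of its own number.

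Between the code series, 0 members passed. The number was 1 after a shift by the 75th percentile, 3 at an equal back-transformed total, and 0 to 2 when 1 library was left out. The difference of miR-378b was 0.078 after a shift by the median deviation, and ranged from -0.26 to 0.11 over the left-out libraries. That of miR-378c was -0.030 after a shift by the 75th percentile and -0.28 at an equal total, and ranged from -0.11 to 0.21 over the left-out libraries. The cause was not tested. The difference of the arm ratio was 0.13 without Control replicate 1, its range over the left-out libraries being -0.15 to 0.13. The depth of the libraries is unknown, and 3 libraries a group limit the precision.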
